A study of Mus musculus with 6 samples.

Results

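The genes described here handle bile acids in the ileum: Fabp6, Slc51a, Slc51b, Slc10a2, Nr1h4, Nr0b2 and Fgf15. They were chosen by symbol and are 7 of the 32285 genes counted in each library. They were followed in single-cell RNA sequencing of mouse ileal crypt epithelium sorted by the surface protein EpCAM. Control libraries came from Fpr2f/f mice, labelled WT, in which the gene of formyl peptide receptor 2 carries recombination sites and is left in place (n = 3). Fpr2VKO libraries came from Fpr2f/f mice that also carry Cre recombinase under the Villin promoter, which is active in intestinal epithelial cells (n = 3). Per the study's methods the Fpr2f/f line was on the C57BL/6J background, and mice were sex- and age-matched at 8 to 12 weeks. The labels name no treatment. The study's legends give 3 mice for each group of the single-cell data. The labels do not tie a library to a mouse, and p-values measure the spread between libraries.

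Bile acids are made in the liver and are recovered almost entirely in the ileum. The apical transporter encoded by Slc10a2 takes them up, the ileal bile acid binding protein encoded by Fabp6 carries them through the enterocyte, and the transporter made of the Slc51a and Slc51b products releases them on the basal side. Bile acids in the cell activate the nuclear receptor FXR, the product of Nr1h4, which induces Fabp6, Slc51a, Slc51b, the corepressor gene Nr0b2 (SHP) and Fgf15, a hormone that lowers bile acid synthesis in the liver.

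The libraries held 90142126 to 189516114 UMIs, a UMI (unique molecular identifier) being the tag of 1 captured transcript. Barcodes with at least 1000 UMIs, 500 genes and at most 20% mitochondrial UMIs were kept, which left 1868 to 4722 cells per library, and 65.7% to 90.1% of the barcodes past the other limits were removed by the mitochondrial limit. Outside an immune-like cluster, 16813 epithelial cells were left, with library medians of 3011 to 4585 UMIs in Fpr2f/f and 6226 to 6894 in Fpr2VKO, so depth per cell did not overlap between the groups. They include an unnamed cluster of 38 cells led by immunoglobulin genes such as Ighm and Jchain, which held 5 Fabp6 UMIs, 4 Nr1h4 UMIs and 0 of the other 5 members. Epcam, the gate gene, had a UMI in 94.4% to 97.8% of them and Ptprc, a leukocyte gene, in 0.802% to 2.57%. Fpr2 had 0 UMIs in every library of both groups, which allows up to 0.0577 to 0.114 CPM (a gene's UMIs per 1000000 UMIs) per library at 3 counts, so its loss could not be checked. Any pair of libraries shared at most 23 cell barcodes. Cells were clustered with the 7 genes held out of the clustering genes, and clusters took class names ending in "-like" from marker lists. A lower level in a sum of cells does not by itself tell fewer expressing cells from less RNA per cell. For the comparison of the groups both are given for Fabp6 in enterocyte-like cells only.

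The 7 genes lie on different chromosomes of GRCm38. Fabp6 is at chr11:43596049-43601540 (minus strand), Slc51a at chr16:32474504-32487879 (minus), Slc51b at chr9:65412714-65422955 (minus), Slc10a2 at chr8:5083219-5105351 (minus), Nr1h4 at chr10:89454234-89533585 (minus), Nr0b2 at chr4:133553376-133556536 (plus) and Fgf15 at chr7:144896531-144900953 (plus). RefSeq promoter windows (GRCm38.p6, 250 bases before to 50 after the start) matched 6 of the 7 genes, and the set of windows used held none for Fgf15. Those of the carrier and the transporters are shown because these 4 genes carry bile acids through the cell. Capitals mark 2 motifs searched on both strands: an inverted repeat of AGGTCA with 1 base between its arms, the kind of site FXR binds, with the base next to last in each arm left free, and CAAGGNCA, the kind of site that LRH-1 (the product of Nr5a2) binds. The repeat was loosened in this way after the Fabp6 window had been read, and the loosened form takes every match of the strict form.
Fabp6, chr11:43601513-43601812, minus strand: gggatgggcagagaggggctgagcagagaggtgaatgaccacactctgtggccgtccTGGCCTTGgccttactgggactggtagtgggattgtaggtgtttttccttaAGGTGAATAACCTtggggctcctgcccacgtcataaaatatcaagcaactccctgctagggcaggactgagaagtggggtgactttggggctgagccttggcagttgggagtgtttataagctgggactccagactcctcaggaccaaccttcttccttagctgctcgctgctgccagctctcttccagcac
Slc51a, chr16:32487830-32488129, minus strand: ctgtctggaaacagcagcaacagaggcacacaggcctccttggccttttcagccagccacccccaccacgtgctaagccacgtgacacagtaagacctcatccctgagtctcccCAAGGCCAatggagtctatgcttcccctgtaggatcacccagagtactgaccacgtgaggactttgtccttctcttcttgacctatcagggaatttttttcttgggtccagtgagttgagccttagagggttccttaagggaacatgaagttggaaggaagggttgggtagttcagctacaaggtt
Slc51b, chr9:65422724-65423023, minus strand: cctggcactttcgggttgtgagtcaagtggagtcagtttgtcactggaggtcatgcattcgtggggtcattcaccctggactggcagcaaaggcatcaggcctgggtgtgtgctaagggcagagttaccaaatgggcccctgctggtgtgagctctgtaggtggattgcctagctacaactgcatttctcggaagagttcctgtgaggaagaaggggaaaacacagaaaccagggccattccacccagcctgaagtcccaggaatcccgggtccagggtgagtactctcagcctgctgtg
Slc10a2, chr8:5105238-5105537, minus strand: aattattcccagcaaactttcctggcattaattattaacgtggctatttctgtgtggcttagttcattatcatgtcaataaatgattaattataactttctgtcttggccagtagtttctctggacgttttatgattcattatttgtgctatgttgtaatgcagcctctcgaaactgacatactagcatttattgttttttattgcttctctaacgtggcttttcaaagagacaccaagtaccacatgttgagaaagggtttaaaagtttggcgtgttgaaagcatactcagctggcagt
The loosened repeat matched in the Fabp6 window alone among the 6, as AGGTGAATAACCT, and in 0.0259% of 27025 promoter windows of the same length. The stricter repeat matched in none of the 6 and in 0.0111% of all windows. CAAGGNCA matched in the windows of Fabp6, Slc51a and Nr0b2 and in 6.67% of all windows. AGGTCA alone, which can overlap either motif, matched in those of Slc51a, Slc51b and Nr1h4 and in 16.0% of all. The palindromic HNF1 motif matched in none of the 6 and in 0.00740% of all. The Nr1h4 window (chr10:89506609-89506908) lies inside the annotated span of the gene. A match is a match of letters only.

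Fabp6, the intracellular carrier, was highest in enterocyte-like cells. It reached 823, 932 and 4641 CPM there in Fpr2f/f replicates 1 to 3 and 1550, 328 and 1235 CPM in Fpr2VKO replicates 1 to 3. In cells of clusters that took no name it reached 1443 CPM ± 860 (mean ± SD over the 6 libraries), and enterocyte-like cells were higher in 3 of 6 libraries, so these neighbours in the order did not differ beyond their spread. The level was 126 CPM in transit-amplifying (TA)-like cells, 99.9 in tuft-like, 63.4 in goblet-like, 15.4 in Paneth-like, 13.1 in stem-like and 13.1 in enteroendocrine-like cells. The 6 library values of unnamed and TA-like cells did not overlap, whereas those of all lower neighbours did. These levels are a description of clusters and carry no test.

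**Figure D1:**
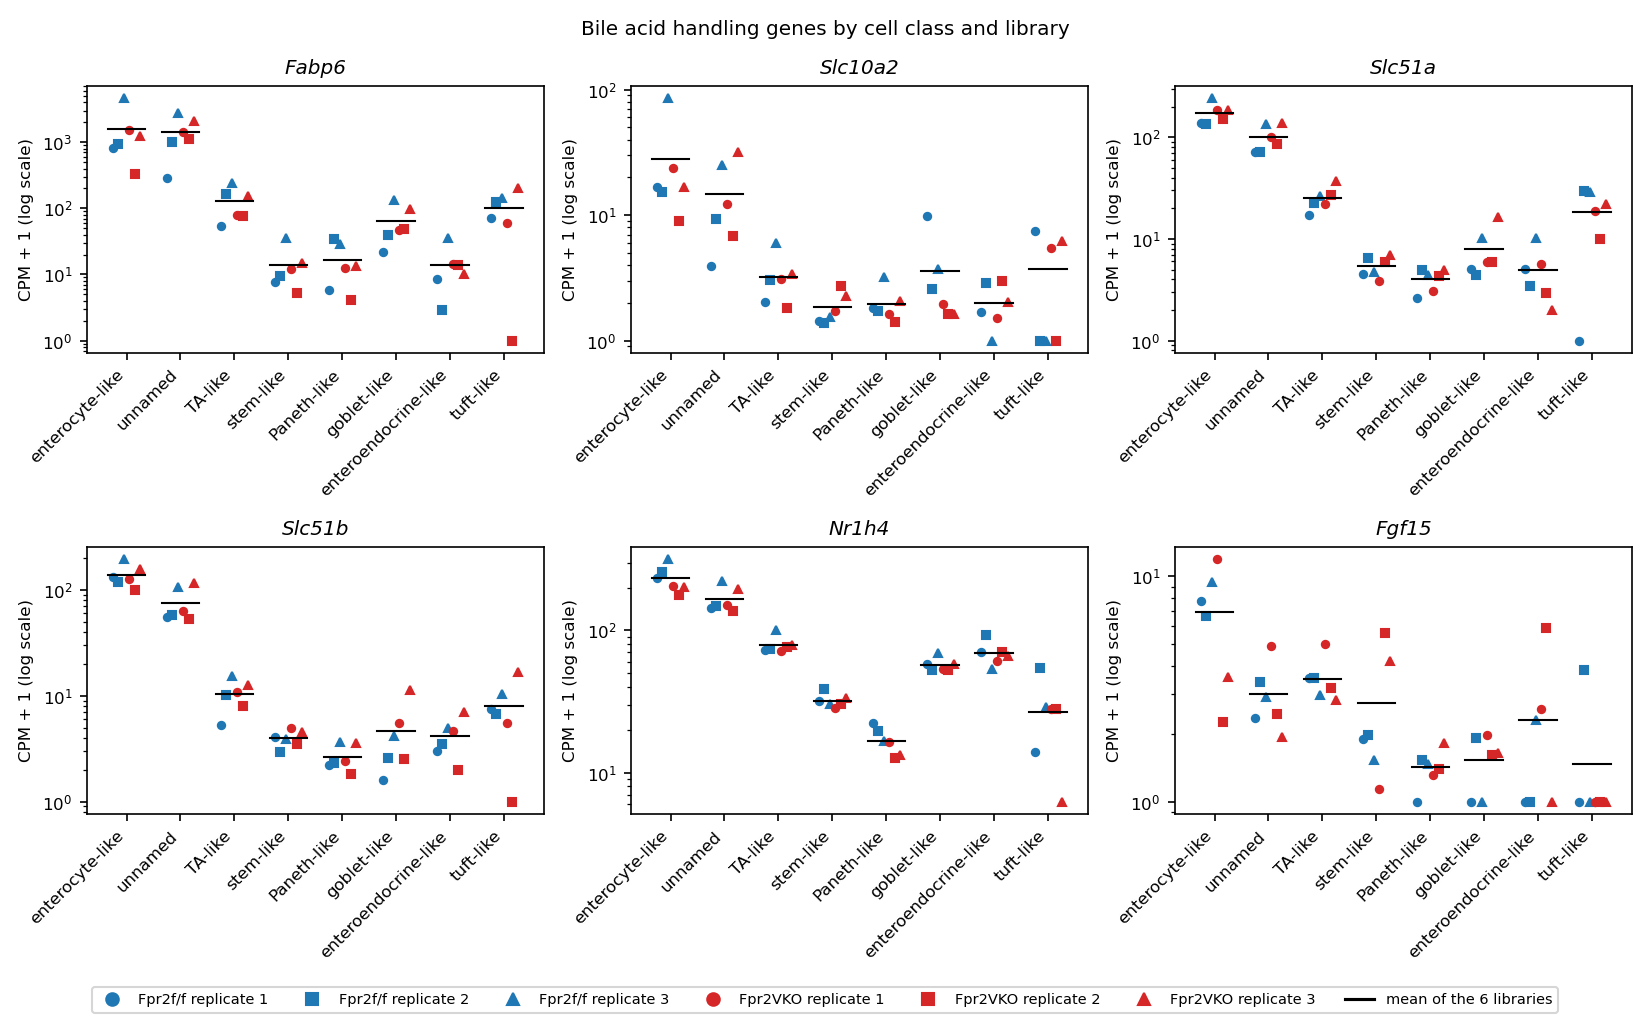
Level of 6 genes in each class, as CPM + 1 on a log axis. Each point is 1 library (blue, Fpr2f/f; red, Fpr2VKO; shape, replicate) and the line is the mean of the 6 libraries. Fabp6, Slc10a2, Slc51a and Slc51b stand highest in enterocyte-like and unnamed cells, while Nr1h4 also stands at 68.1 CPM in enteroendocrine-like cells.

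Barcodes with few UMIs hold free RNA, which also enters droplets with cells. In barcodes with fewer than 100 UMIs, Fabp6 stood at 130, 176 and 878 CPM in Fpr2f/f replicates 1 to 3 and at 211, 99.9 and 290 CPM in Fpr2VKO replicates 1 to 3. Its levels in TA-like, tuft-like, goblet-like, Paneth-like, stem-like and enteroendocrine-like cells were lower than this in every library. The amount of free RNA inside a cell was not measured, so this order does not tell expression from free RNA. With each cell thinned to 2000 UMIs and shallower cells left out (642 of 3534 enterocyte-like and 102 of 1457 Paneth-like cells), 31.2% ± 14.5 of enterocyte-like cells held a Fabp6 UMI, against 5.46% ± 3.59 of Paneth-like cells, which should lack the gene (mean ± SD, n = 6 libraries). Unthinned, the shares were 37.0% and 24.9%, at median depths of 3437 and 17062 UMIs. The thinned shares of stem-like (4.40%) and enteroendocrine-like cells (2.47%) were lower still, and those of TA-like (9.85%), tuft-like (7.98%) and goblet-like cells (7.06%) were between the Paneth-like and enterocyte-like shares.

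The apical uptake transporter and the basal release transporter followed Fabp6 at lower counts. Slc10a2 had 1518 UMIs in all epithelial cells, of which 51.4% lay in enterocyte-like and 33.3% in unnamed cells. Its level in enterocyte-like cells was 15.8, 14.4 and 84.6 CPM in Fpr2f/f and 22.8, 7.90 and 15.9 CPM in Fpr2VKO replicates 1 to 3. It was at 0.843 CPM in stem-like and 0.971 CPM in Paneth-like cells. Slc51a, 1 subunit of the release transporter, was at 172 CPM ± 41.1 in enterocyte-like, 99.0 in unnamed and 24.5 in TA-like cells, and at 3.06 to 17.4 CPM in the other classes (means of 6 libraries). Slc51b, the other subunit, was at 137 CPM ± 33.3, 74.5 and 9.37 CPM in the same 3 classes and at 1.67 to 6.96 CPM elsewhere. For both subunits enterocyte-like cells were above unnamed cells in 6 of 6 libraries. Barcodes under 100 UMIs held 28.3 to 56.2 CPM of Slc51a, 17.4 to 42.1 of Slc51b and 1.98 to 8.28 of Slc10a2. Both subunits were below this in every library in all named classes other than enterocyte-like, and so was Slc10a2 in TA-like, stem-like, Paneth-like and enteroendocrine-like cells.

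Nr1h4, the bile acid receptor gene, stood at 231 CPM ± 49.8 in enterocyte-like cells, 166 in unnamed, 78.0 in TA-like, 68.1 ± 13.6 in enteroendocrine-like, 56.5 in goblet-like, 31.1 in stem-like, 25.7 in tuft-like and 15.8 ± 3.72 in Paneth-like cells. Barcodes under 100 UMIs held 59.6 to 86.7 CPM of Nr1h4, and TA-like cells were above their own library's value in 4 of 6 libraries and enteroendocrine-like cells in 3 of 6. Goblet-like, stem-like, tuft-like and Paneth-like cells were below it in 6 of 6 libraries. How much free RNA these cells held was not measured, so their levels are read neither as expression nor as free RNA. Fabp6 had 1.68 to 11.3 UMIs per Nr1h4 UMI in barcodes under 100 UMIs (median of the libraries 2.504), against medians of 0.162 in enteroendocrine-like, 0.315 in stem-like, 0.872 in Paneth-like, 0.888 in goblet-like and 1.51 in TA-like cells. Tuft-like cells, with 37 Nr1h4 UMIs in all, had a higher median of 3.66 (0 to 39). Thinned to 2000 UMIs, 10.005% ± 3.40 of enteroendocrine-like cells held an Nr1h4 UMI against 4.83% ± 2.76 of Paneth-like cells. Among the 3 enteroendocrine-like clusters, picked out after their values were seen, the one led by Chgb, Tac1, Chga and Tph1 (264 cells) had 116, 103 and 119 CPM in Fpr2f/f and 84.8, 84.0 and 88.5 CPM in Fpr2VKO replicates 1 to 3, and the one led by Gcg and Cck had 86.5 CPM over all libraries. No test between the groups was run in these clusters. The 119 CPM of the Chgb-led cluster in Fpr2f/f replicate 3 came from 19 cells, fewer than the minimum set for a tested sum. How many other genes had groups that did not overlap in this cluster was not counted, so the gap is not read as a difference. In the whole class the Nr1h4 log2 fold change (Fpr2VKO over Fpr2f/f) was -0.16 ± 0.21 (SE, edgeR adjusted p = 0.9996). The cluster led by Neurog3, the endocrine progenitor factor, had 13.3 CPM over all libraries. Fabp6 was at 10.2 to 13.5 CPM over all libraries in these 3 clusters.

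Fgf15 and Nr0b2, both FXR target genes, were sparse. Fgf15 had 501 UMIs in the epithelial cells, 35.5% of them in enterocyte-like cells, where it stood at 6.79, 5.70 and 8.46 CPM in Fpr2f/f and 10.9, 1.26 and 2.57 CPM in Fpr2VKO replicates 1 to 3. Barcodes under 100 UMIs held 1.21 to 3.89 CPM of Fgf15. Nr0b2 had 65 UMIs in 16813 cells, between 0.162 and 0.577 CPM per library, and 5 UMIs in enterocyte-like cells. No order of classes can be read from it.

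Levels also differed between clusters within the enterocyte-like class. By CPM pooled over the libraries, the 3 clusters with most Fabp6 were 1 enterocyte-like and 2 unnamed clusters. The enterocyte-like cluster led by Ceacam20, Tmem117, Prickle2, Malrd1 and Apol10a (1120 cells, median 3466 UMIs) had 4442 CPM of Fabp6, 76.7 of Slc10a2, 460 of Nr1h4 and 12.4 of Fgf15. An unnamed cluster led by Reg3b, Reg3g, Gsdmc4, Mgat4c and Sult1b1 (743 cells, median 28731 UMIs) had 2275 CPM of Fabp6 and 217 of Nr1h4, and its 4.42% of the epithelial cells carried 44.5% of all Fabp6 UMIs. An unnamed cluster led by 2010103J01Rik, Gsdmc2, Zg16, Hkdc1 and Xkr9 (248 cells) had 1427 CPM of Fabp6. Its groups did not overlap, at 525, 2134 and 2977 CPM in Fpr2f/f and 384, 40.7 and 339 CPM in Fpr2VKO replicates 1 to 3. It held only 11 to 24 cells per Fpr2VKO library, and the groups were not tested in it. The share of all genes whose groups did not overlap in this cluster was not counted, so the gap is not read as a difference. In the Ceacam20-led and Reg3b-led clusters the Fabp6 groups overlapped. The remaining enterocyte-like clusters were led by Apoa1, Fabp1, Reg1, Apoa4 and Rbp2 (731 cells, median 28648 UMIs, 1159 CPM) and by Creb3l3, Areg, Pfkfb3, Apob and Adh6a (1683 cells, median 2685 UMIs, 199 CPM). By the mean of the 6 libraries the Apoa1-led cluster (1382 CPM) stood above the 2010103J01Rik-led cluster (1067 CPM) and so among the highest 3. Slc51a was at 202 and Slc51b at 170 CPM in the Apoa1-led cluster, above the 167 and 72.8 CPM of the Ceacam20-led cluster, whereas Nr1h4 and Slc10a2 were lower there, at 170 and 16.4 CPM. By pooled CPM the 3 clusters with least Fabp6 were a stem-like cluster led by Olfm4 and Lgr5 (7.13 CPM), a Paneth-like cluster led by Mptx2 and defensin genes (7.73 CPM) and the Chgb-led enteroendocrine-like cluster (10.2 CPM). By the mean of the 6 libraries the Chgb-led cluster had 14.6 CPM and the Neurog3-led cluster, at 10.4 CPM, took its place among the lowest 3.

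**Figure D2:**
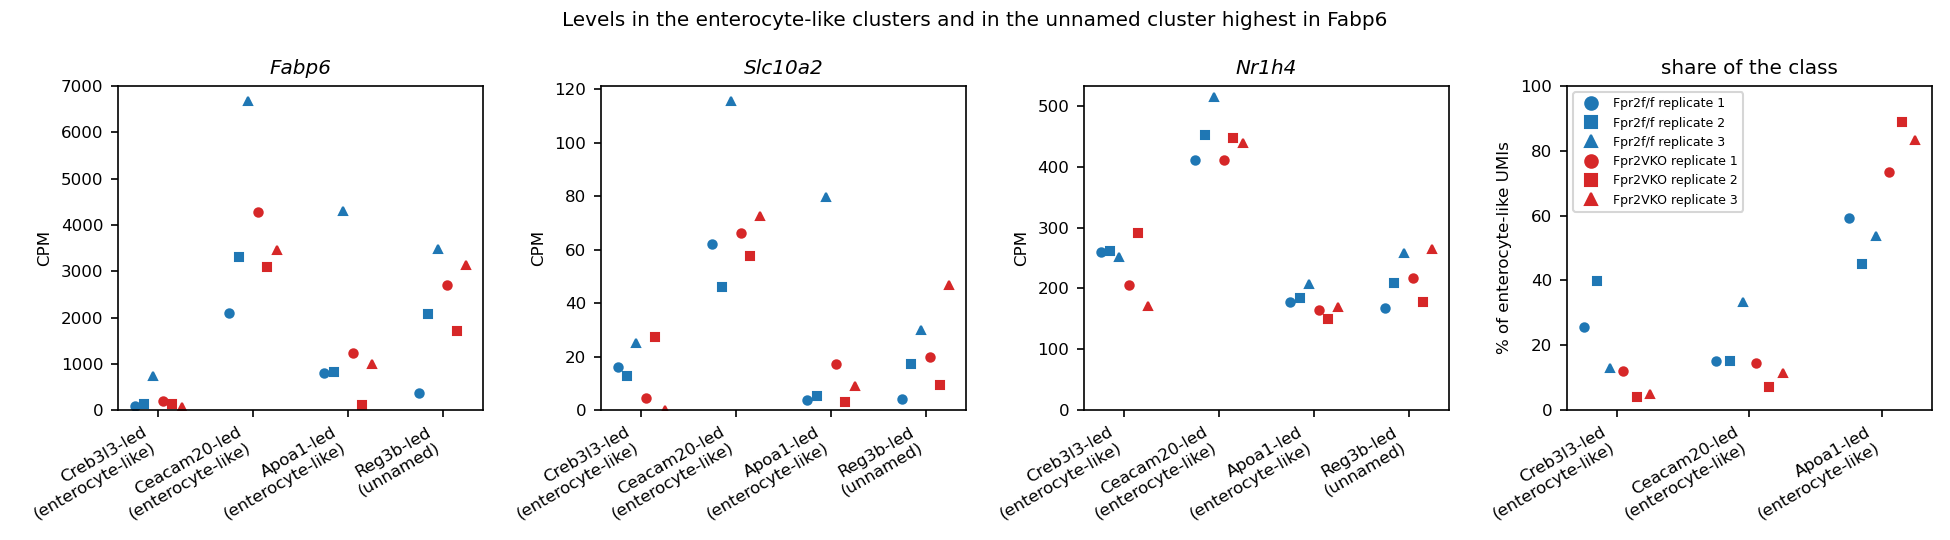
CPM of Fabp6, Slc10a2 and Nr1h4 per library in the 3 enterocyte-like clusters and in the unnamed cluster led by Reg3b, and, on the right, the share of enterocyte-like UMIs that each cluster gave. Points are libraries (blue, Fpr2f/f; red, Fpr2VKO; shape, replicate). Fpr2f/f replicate 3 stands highest for Fabp6 in all 4 clusters, and the Apoa1-led cluster gave 73.5% to 88.8% of the UMIs in Fpr2VKO against 45.02% to 59.3% in Fpr2f/f libraries.

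The other members were compared across enterocyte-like cells binned by Fabp6 count after thinning to 2000 UMIs. Cells with 0 Fabp6 UMIs (2012 cells), 1 to 4 (387), 5 to 19 (302) and 20 or more (191) had Slc10a2 at 6.16 ± 3.82, 15.3 ± 14.5, 58.8 ± 16.3 and 228 ± 107 CPM (mean ± SD over libraries with at least 10 such cells: 6, 6, 6 and 5). Slc51b was at 115 ± 19.9 CPM in the lowest and 462 ± 112 in the highest bin, and Slc51a at 142 ± 16.3 and 513 ± 83.2 CPM. Nr1h4 was at 186 ± 28.7 CPM in the lowest, 462 ± 40.8 in the next to highest and 432 ± 90.0 in the highest bin. All 4 were higher in the highest than in the lowest bin in 5 of 5 libraries, and Fgf15 in 4 of 5 (2.61 ± 2.06 against 51.8 ± 48.6 CPM). Fpr2VKO replicate 2 had too few cells in the highest bin. Genes of the distal small intestine went the same way: Cubn, a receptor for vitamin B12 uptake, was at 3.11 ± 2.496 and 68.8 ± 39.998 CPM in the lowest and highest bins and Ceacam20, a brush border adhesion protein, at 83.5 ± 12.2 and 399 ± 159 CPM. Lct, the lactase gene, and Fabp1, the liver-type fatty acid carrier, both of the proximal intestine, were lower in the highest bin in 5 of 5 libraries, at 61.3 ± 19.3 against 13.8 ± 12.8 and 2301 ± 1453 against 112 ± 79.7 CPM. The other 3 genes of the proximal list did not all go this way: S100g was lower in 4 and higher in 1 of 5 libraries, Slc40a1 lower in 2 and higher in 3, and Cybrd1, with hardly any UMIs, lower in 2 and higher in 0. The bins are cells of the same libraries and carry no test.

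**Figure D3:**
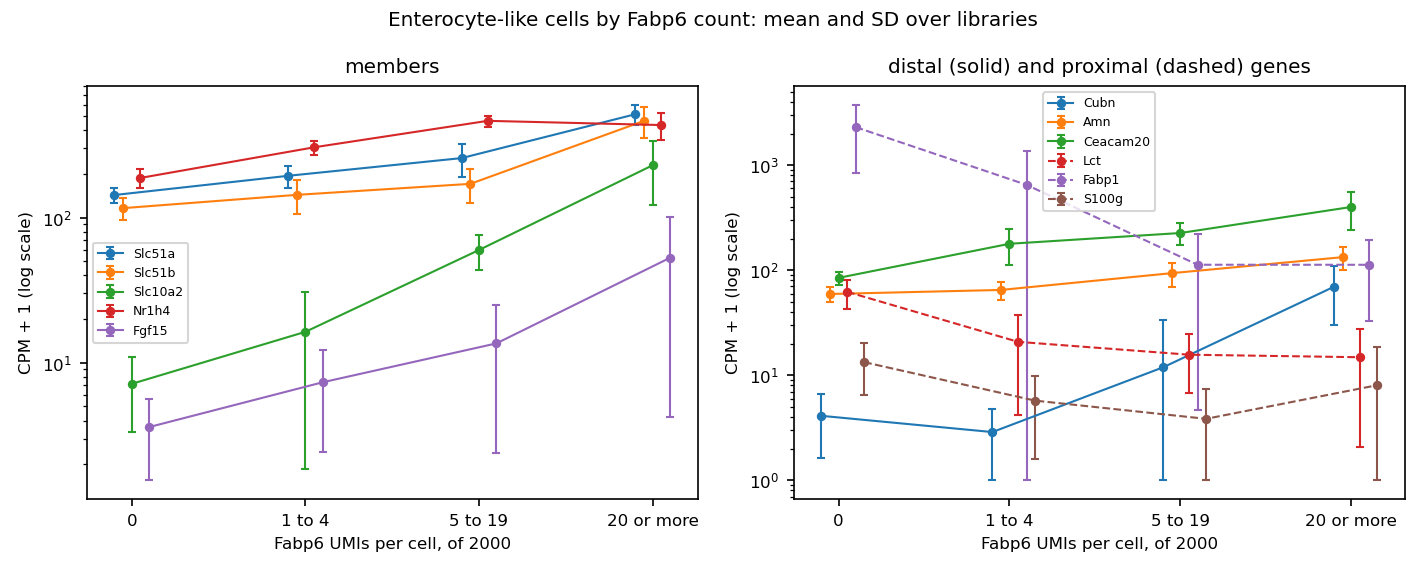
CPM + 1 (log axis) of other members (left) and of genes of the distal (solid) and proximal (dashed) small intestine (right) in enterocyte-like cells binned by Fabp6 UMIs of 2000 per cell. Points are means over the libraries with at least 10 such cells and bars are the SD, stopped at 0 CPM. Slc10a2 goes from 6.16 to 228 CPM across the bins while Fabp1 goes from 2301 to 112 CPM.

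Over 48 sums of 1 class in 1 library, which share libraries and classes, the genes most like each member were sought by Pearson r of log2(CPM + 1) among 6398 genes with a mean of at least 20 CPM, leaving out Nr0b2 with its 65 UMIs. For Fabp6 they were Mgat4c (0.941), Apol10a (0.925) and Slc51b (0.913). For Slc51a they were Enpep (0.954), which encodes a brush border aminopeptidase, Tgfbi (0.951) and Hkdc1 (0.942). Those of Slc51b were Mep1b (0.948), a brush border metalloprotease gene, Apol10a (0.946) and Enpep (0.931). For Slc10a2 they were Slc51b (0.818), Mep1b (0.815) and Fabp6 (0.797). For Nr1h4 they were Ces2c (0.914), a carboxylesterase gene, Ptprh (0.910) and Sec23a (0.903), and its r with Fabp6 was 0.690. For Fgf15 the highest values were lower, at 0.710 for Galm, 0.708 for C1qtnf12 and 0.707 for Prxl2b. These values describe the sums and carry no p.

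The comparison of Fpr2VKO with Fpr2f/f asks whether epithelial deletion of Fpr2 changed these genes. In all epithelial cells Fabp6 reached 170, 368 and 1358 CPM in Fpr2f/f and 441, 211 and 506 CPM in Fpr2VKO replicates 1 to 3. All Fpr2VKO values lay inside the Fpr2f/f range, which covered a 7.98-fold difference. The log2 fold change (Fpr2VKO over Fpr2f/f) was -0.69 ± 0.90 (SE; edgeR quasi-likelihood test, adjusted p = 0.852) and without Fpr2f/f replicate 3 it was 0.52, so the direction turned on that library. Slc10a2 was likewise highest in Fpr2f/f replicate 3 and its groups overlapped, with 3.37, 4.42 and 19.2 CPM in Fpr2f/f and 5.62, 2.56 and 7.55 CPM in Fpr2VKO, a log2 fold change of -0.76 ± 0.85 (adjusted p = 0.828), and 0.42 without Fpr2f/f replicate 3. Slc51a was at 36.3, 39.1 and 72.8 CPM in Fpr2f/f and 46.1, 40.5 and 55.5 CPM in Fpr2VKO, with a log2 fold change of -0.02 ± 0.28 (adjusted p = 0.987). Slc51b was at 27.4, 30.2 and 56.3 CPM and 30.2, 23.2 and 42.1 CPM, with a log2 fold change of -0.22 ± 0.35 (adjusted p = 0.873). Both subunits were highest in Fpr2f/f replicate 3, and without it their log2 fold changes were 0.36 and 0.17. Fgf15 stood at 2.01, 2.15 and 2.25 CPM and 3.28, 1.92 and 1.68 CPM, with a log2 fold change of 0.13 ± 0.26 (adjusted p = 0.894). Nr0b2 did not pass the filter on low counts.

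Nr1h4 was the member whose groups did not overlap in all epithelial cells. It reached 93.8, 96.1 and 130 CPM in Fpr2f/f and 81.4, 73.2 and 85.5 CPM in Fpr2VKO replicates 1 to 3. It was 1 of 6 members with at least 100 UMIs, and 10.2% of the 15226 genes with at least 100 UMIs likewise did not overlap with Fpr2VKO lower. With Fpr2VKO higher, 0 of 6 members and 3.53% of the genes did not overlap. The Nr1h4 log2 fold change was -0.37 ± 0.14 (edgeR adjusted p = 0.484), and -0.21 without Fpr2f/f replicate 3. The classes also took different shares of the cells. Enterocyte-like cells, the class highest in Nr1h4, made up 21.9% to 24.3% in Fpr2f/f and 16.5% to 20.4% in Fpr2VKO libraries, unnamed cells 24.3% to 27.1% and 19.96% to 21.6%, and stem-like cells, which are low in Nr1h4, 8.33% to 12.9% and 13.8% to 16.4%. Barcodes under 100 UMIs held 77.4, 86.7 and 77.7 CPM of Nr1h4 in Fpr2f/f and 70.9, 59.6 and 62.1 CPM in Fpr2VKO replicates 1 to 3, and over all barcodes the values were 101, 109 and 108 against 83.8, 80.3 and 76.3 CPM, so free RNA and whole libraries were lower in Fpr2VKO as well. The part of class shares, depth and free RNA in the Nr1h4 difference was not tested.

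**Figure D4:**
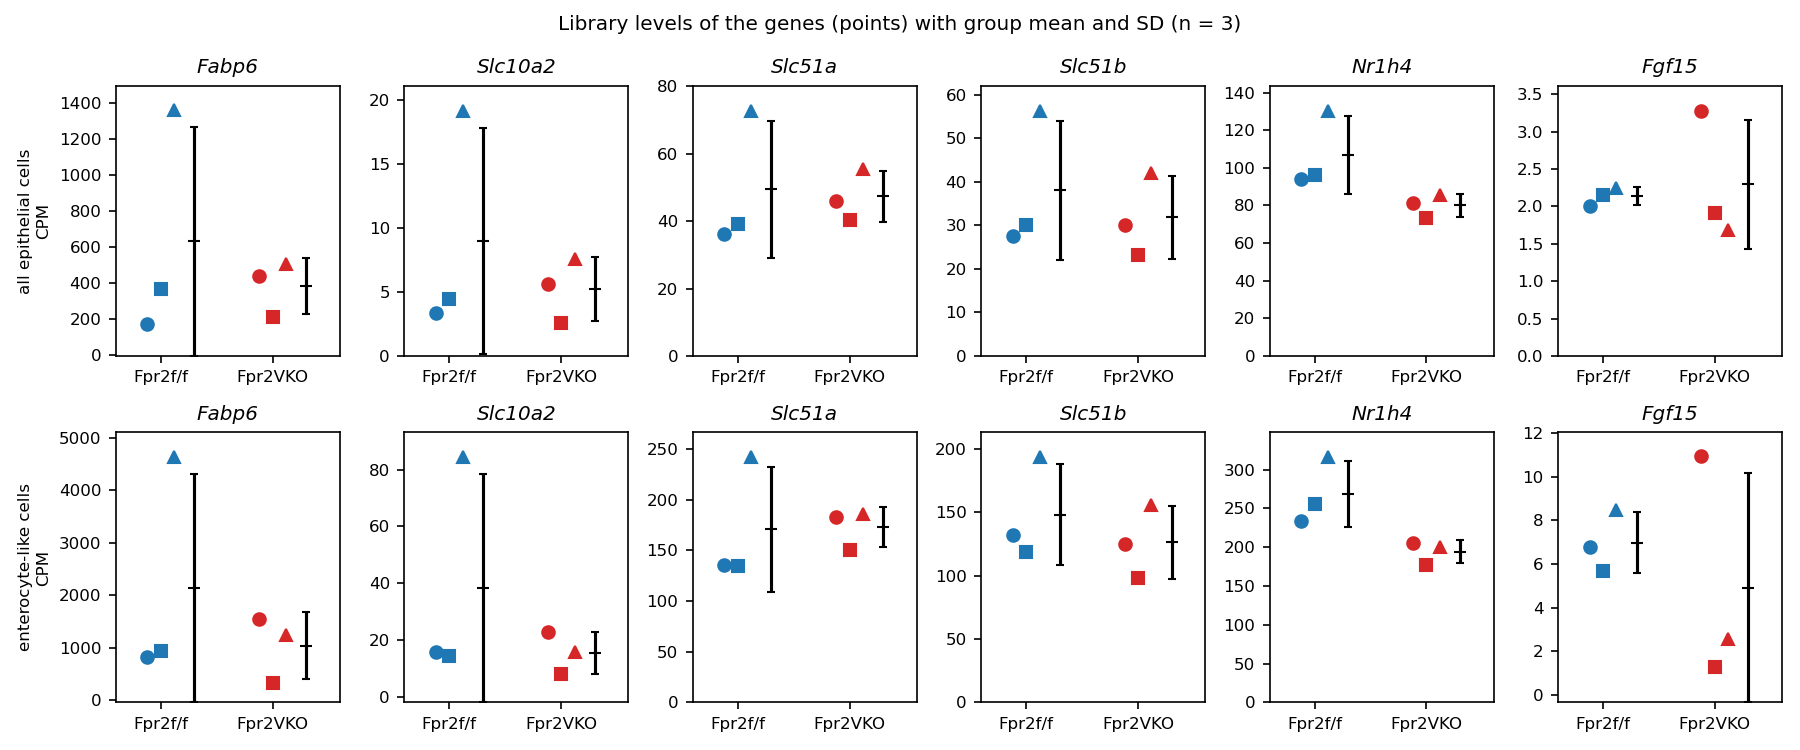
CPM of 6 members per library in all epithelial cells (top) and enterocyte-like cells (bottom), with the group mean and SD (bars, n = 3) beside the points. Shape marks the replicate. Fpr2f/f replicate 3 (blue triangle) is highest for Fabp6, Slc10a2, Slc51a, Slc51b and Nr1h4 in both rows, and the groups of Nr1h4 do not overlap.

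By the edgeR quasi-likelihood test, 0 of 6 members tested were called at an adjusted p under 0.05 in all epithelial cells, where 0.0179% of 16718 genes were called (1 member and 1513 genes at an unadjusted p under 0.05, 0 members called by DESeq2). In enterocyte-like cells 1 of 6 members tested was called, where 5.57% of 11262 genes were called. It was lower in Fpr2VKO, as were 3.36% of the genes, while 0 of 6 members and 2.21% of the genes were higher. No member was called in stem-like (4 tested, background 0.357%), TA-like (6, 0.0802%), Paneth-like (3, 0.00915%), goblet-like (3, 0.0594%), enteroendocrine-like (2, 0.0203%), tuft-like (1, 0.0316%) or unnamed cells (6, 0.00847%) by edgeR or by DESeq2. At an unadjusted edgeR p under 0.05 there was 1 member in TA-like cells (Slc51a, log2 fold change 0.38 ± 0.18) and 1 in Paneth-like cells (Nr1h4, -0.47 ± 0.17) and 0 in the other 5. Of all genes tested, 629 of 12464 in TA-like and 754 of 10923 in Paneth-like cells were under that limit.

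The member called in enterocyte-like cells was Nr1h4. It reached 234, 256 and 316 CPM in Fpr2f/f and 205, 177 and 200 CPM in Fpr2VKO replicates 1 to 3, and the groups did not overlap, as for 14.1% of 10160 genes with at least 100 UMIs in these cells with Fpr2VKO lower (with Fpr2VKO higher, 0 of 6 members and 14.8% of genes). The log2 fold change was -0.45 ± 0.13 (edgeR adjusted p = 0.0490). The call was lost without Fpr2f/f replicate 2 or 3, or without Fpr2VKO replicate 1, 2 or 3, at edgeR adjusted p of 0.102 to 0.204. The log2 fold changes in these settings were -0.47 to -0.37, so the size changed little while the call did not hold. The class was made up differently in the groups. The Apoa1-led cluster, the lowest of the 3 in Nr1h4, gave 59.3%, 45.02% and 53.6% of the enterocyte-like UMIs in Fpr2f/f and 73.5%, 88.8% and 83.3% in Fpr2VKO replicates 1 to 3. The Creb3l3-led cluster gave 25.5%, 39.7% and 12.9% against 11.9%, 4.07% and 5.08%. Within the clusters the Nr1h4 log2 fold change was -0.28 (Apoa1-led, adjusted p = 0.658), -0.25 (Creb3l3-led, adjusted p = 0.835) and -0.12 (Ceacam20-led, adjusted p = 0.993), and Nr1h4 was called in none of the 3. Of all genes, 2 of 9845, 6 of 6640 and 4 of 7413 were called there. At an unadjusted edgeR p under 0.05 there were 3 of 6, 1 of 5 and 0 of 5 members, and 695, 491 and 325 genes. In the Apoa1-led cluster alone the Nr1h4 groups did not overlap (177, 183 and 208 CPM in Fpr2f/f, 164, 150 and 169 CPM in Fpr2VKO). The share of genes doing likewise in that cluster was not counted.

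The other members were not called in enterocyte-like cells. Fabp6 had a log2 fold change of -0.99 ± 0.97 (edgeR adjusted p = 0.607) and Slc10a2 one of -1.27 ± 0.90 (adjusted p = 0.470), and without Fpr2f/f replicate 3 they were 0.19 and 0.00034. Slc51a was at 0.04 ± 0.17 (adjusted p = 0.913), Slc51b at -0.22 ± 0.17 (adjusted p = 0.451) and Fgf15 at -0.47 ± 0.74 (adjusted p = 0.751). With 1 library left out Slc51b ran from -0.35 to -0.034, the latter without Fpr2f/f replicate 3, and within the Apoa1-led, Creb3l3-led and Ceacam20-led clusters it was -0.72, -0.72 and -0.096, called in none of them. Its groups did not overlap in the Apoa1-led cluster, at 193, 195 and 299 CPM in Fpr2f/f and 149, 102 and 179 CPM in Fpr2VKO replicates 1 to 3. They overlapped in the Creb3l3-led and Ceacam20-led clusters. The share of all genes whose groups did not overlap in the Apoa1-led cluster was not counted. Without Fpr2VKO replicate 1, the library with 10.9 CPM of Fgf15 in enterocyte-like cells, Fgf15 was called instead, with a log2 fold change of -1.86 (adjusted p = 0.0273). In that setting 271 of 11483 genes were called. Fpr2VKO replicates 2 and 3 then stood at 1.26 and 2.57 CPM, where 3 counts are 0.474 and 0.701 CPM, so the call rests on few UMIs.

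**Figure D5:**
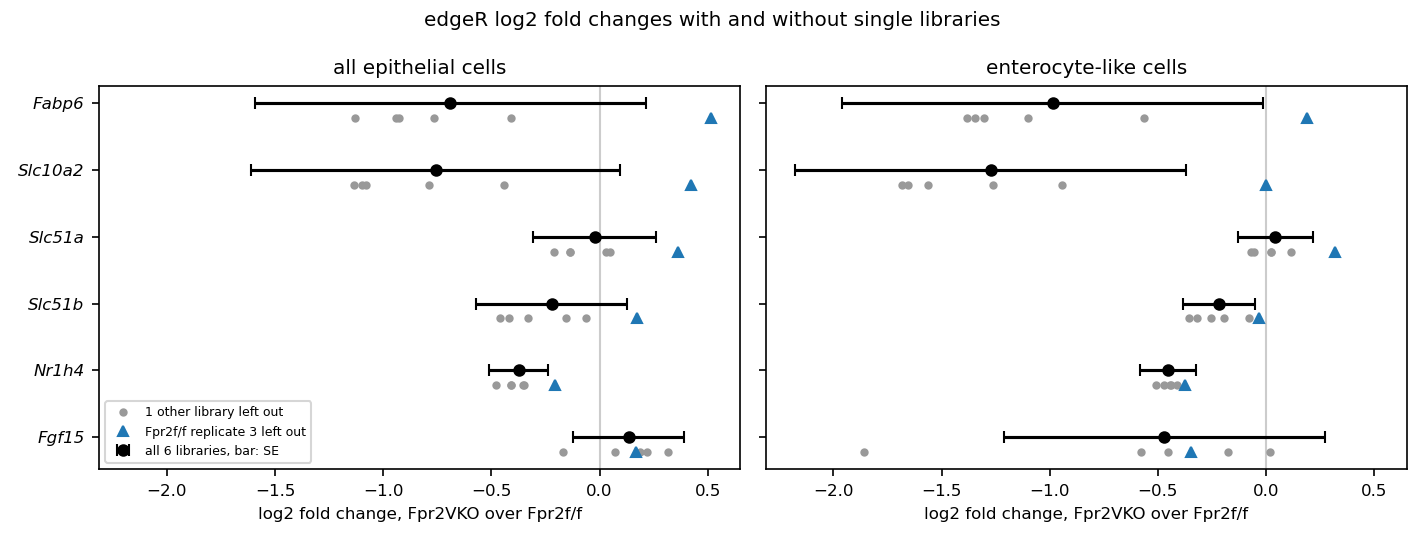
edgeR log2 fold changes of 6 members, Fpr2VKO over Fpr2f/f, in all epithelial (left) and enterocyte-like cells (right). Black points are all 6 libraries with the SE as bars, grey points leave out 1 library and the blue triangle leaves out Fpr2f/f replicate 3. The triangle lies above 0 for Fabp6 in both panels, while every point of Nr1h4 lies below 0.

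The class-standardised Fabp6 level, which weights the classes alike in all libraries, was 252, 469 and 1655 CPM in Fpr2f/f and 677, 348 and 791 CPM in Fpr2VKO replicates 1 to 3. The groups overlapped, at 792 ± 756 and 605 ± 230 CPM (mean ± SD, n = 3 each, two-sided exact permutation p = 0.9, with 0.1 the smallest such a design allows). The difference of -187 CPM became 245 CPM without Fpr2f/f replicate 3. The share of enterocyte-like cells with a Fabp6 UMI at 2000 UMIs was 22.2%, 18.999% and 57.5% in Fpr2f/f and 34.9%, 20.7% and 32.9% in Fpr2VKO replicates 1 to 3 (32.9% ± 21.3 and 29.5% ± 7.67, two-sided exact permutation p = 0.9). Thinning kept 306 of 573, 979 of 1135 and 536 of 616 cells in Fpr2f/f and 421 of 444, 352 of 447 and 298 of 319 in Fpr2VKO. Fpr2f/f replicate 3 also had the most Fabp6 per positive cell, 16.4 UMIs of 2000 against 9.47 to 12.99 in the other libraries. In the Ceacam20-led cluster, the one highest in Fabp6, the level was 2092, 3319 and 6673 CPM in Fpr2f/f and 4270, 3099 and 3464 CPM in Fpr2VKO replicates 1 to 3.

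Genes of the distal and proximal small intestine also varied between the libraries, and the values of every library are given for Cubn and Fabp1 only. In enterocyte-like cells Cubn was at 3.02, 6.24 and 30.8 CPM in Fpr2f/f and 5.10, 3.004 and 4.67 CPM in Fpr2VKO replicates 1 to 3, highest in the library that was highest in Fabp6. Fabp1 was at 1233, 1274 and 724 CPM in Fpr2f/f and 2651, 4456 and 1091 CPM in Fpr2VKO, highest in Fpr2VKO replicate 2, the library lowest in Fabp6. Ceacam20 ranged from 79.8 to 171 CPM, Amn from 49.0 to 81.7, Lct from 29.0 to 83.8, S100g from 6.03 to 23.6 and Slc40a1 from 5.56 to 27.8 CPM, and Cybrd1 had 5 UMIs. These ranges do not show which library was high. Slc40a1 was highest in Fpr2f/f replicate 3 in the lowest and highest Fabp6 bins (21.4 and 61.4 CPM), but not in the bins between. In the lowest bin Amn was highest in Fpr2VKO replicate 1 (74.0 CPM) and Ceacam20 in Fpr2f/f replicate 1 (100.1 CPM). Lct and S100g were highest there in Fpr2VKO replicate 2 (90.3 and 25.5 CPM). In the highest bin Amn was lowest in Fpr2f/f replicate 3 (94.3 CPM). The list genes thus did not all follow Fabp6 between the libraries. In all enterocyte-like cells the log2 fold changes were -1.64 (Cubn), -0.45 (Ceacam20), -0.05 (Amn), 1.36 (Fabp1), 1.03 (S100g), 0.61 (Lct) and -0.02 (Slc40a1). Of the distal list 0 of 3 and of the proximal list 0 of 4 tested were called in these cells, with median log2 fold changes of -0.45 and 0.82. Of the list members, 1 distal and 1 proximal gene had an unadjusted edgeR p under 0.05, as did 2764 of all 11262 genes tested there. Fabp1 was called in goblet-like cells (log2 fold change 1.34 ± 0.23, edgeR adjusted p = 0.0196), where 6 of 10101 genes were called. Its log2 fold change was above 0 in the other classes too, from 0.48 (tuft-like) to 1.92 (TA-like), without a call. How much free Fabp1 RNA the goblet-like cells held was not measured. The part of the distal and proximal genes' variation in the spread of Fabp6 was not tested.

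Other genes of the pathway were mostly not called. Of 10 other transporters of bile acids, sterols and drugs, 10 were tested in all epithelial and 6 in enterocyte-like cells, and 0 were called in either, with median log2 fold changes of -0.10 and -0.12. Abcc2, an apical export pump, was at 215 to 307 CPM and the sterol exporter subunit Abcg5 at 95.4 to 126 CPM over the enterocyte-like libraries. Of 18 receptors and factors, 17 were tested and 0 called in both, with medians of -0.01 and -0.01. They include Rxra, the partner receptor of FXR (27.9 to 37.5 CPM in enterocyte-like cells), Nr5a2, which encodes LRH-1 (90.5 to 177), and Vdr, the vitamin D receptor (249 to 326). Of 12 genes listed under bile acid metabolism and the FGF15 pathway, 9 were tested in all epithelial cells with 0 called, and 7 in enterocyte-like cells with 1 called. That gene was Sult1b1, a sulfotransferase, higher in Fpr2VKO by a log2 fold change of 0.64 ± 0.16 in enterocyte-like (edgeR adjusted p = 0.0340) and 0.70 ± 0.13 in TA-like cells (edgeR adjusted p = 0.0283). Whether the product of Sult1b1 acts on bile acids was not tested. The Sult1b1 log2 fold change was also above 0, without a call, in stem-like (0.71), goblet-like (0.58), Paneth-like (0.55), enteroendocrine-like (0.85) and unnamed cells (0.31). The rise was thus not particular to the 2 classes with a call. In enterocyte-like cells Sult1b1 was at 541, 384 and 424 CPM in Fpr2f/f and 670, 732 and 678 CPM in Fpr2VKO replicates 1 to 3. Of all genes tested, 2.21% were called higher in Fpr2VKO in enterocyte-like cells, and 0.0802% were called in either direction in TA-like cells. Malrd1, whose product raises FGF15 output, was at 257 to 476 CPM in enterocyte-like cells and was not called, and Cyp7a1 and Cyp8b1, which act in the liver, had 6 and 3 UMIs in all epithelial cells.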

How the data were processed

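The deposited files hold raw UMI counts per gene and barcode of 6 libraries, made by the authors with MobiVision on reads aligned to mm10 (GRCm38). The annotation version is not given in the sources used here. The submitters' processing notes also name Seurat 4.0.0. Each deposited file lists 2359296 barcodes, without cell calling.

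The members, gene lists and tests were chosen with earlier results of these data known. Barcodes with at least 1000 UMIs, 500 genes and at most 20% mitochondrial UMIs were kept. Doublets were not removed in the values reported and were removed in an alternative. Counts were log-normalised, and 2000 variable genes without the members gave 30 components. After alignment of the libraries on mutual nearest neighbours, Leiden clusters were drawn (leidenalg 0.10.2, resolution 1). Each cluster was scored by the mean log2 fold of each class's markers, and the best class named it given a mean of 0.5 or more, with 3 or more of its markers raised and found in 10% of the cells. Clusters led by another class's markers, or shallow and led by none, were left unnamed.

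UMIs were summed per library and class (at least 20 cells) and tested with edgeR 4.0.16 (R 4.3.3, quasi-likelihood, TMM, filterByExpr, robust), adjusted over all genes tested (Benjamini-Hochberg). DESeq2 1.42.0 was an alternative. CPM is a gene's UMIs per 1000000 summed UMIs, shares were compared by exact permutation tests, and intervals at 0 counts use 3 counts and cover counting error only. A replicate of a group is a library of the labels. Named genes were the members, the lists, the 3 genes most like each member, the 5 leading genes of the 3 clusters highest and 3 lowest in Fabp6, and exceptions said so. Gene positions came from GENCODE by gene ID and promoters from RefSeq (GRCm38.p6).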

Additional observations from a re-analysis of the deposited data

How the results depend on the processing

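The number of members called was 0 under all alternatives run in all epithelial, stem-like, TA-like, goblet-like, enteroendocrine-like, tuft-like and unnamed cells. In enterocyte-like cells it was 0, in place of 1, with no filter on low counts, with mitochondrial limits of 10% or 40%, with at least 2500 UMIs per cell, with no alignment of the libraries, with the members allowed among the clustering genes and at Leiden resolution 2, and 0 to 1 over the settings that leave out a library. In Paneth-like cells it was 2 (Nr1h4 and Slc51b) of 4 tested with doublets removed, where 16 of 10902 genes were called. Nr1h4 in enterocyte-like cells kept its direction in all 19 alternatives (-0.51 to -0.12) and its call in 4 of them, with adjusted p from 0.0277 to 0.993. The causes were not tested.

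In all epithelial cells the Slc51a log2 fold change was 0.043 under the replicate block and the Fgf15 value -0.19 at a 40% limit. Leaving out a library gave ranges of -1.13 to 0.52 (Fabp6), -0.21 to 0.36 (Slc51a), -0.46 to 0.17 (Slc51b), -1.14 to 0.42 (Slc10a2), -0.48 to -0.21 (Nr1h4) and -0.17 to 0.32 (Fgf15). At a 10% limit the values were -1.67 (Fabp6), -0.42 (Slc51a), -0.73 (Slc51b), -1.61 (Slc10a2) and -0.66 (Nr1h4), none of them called. In enterocyte-like cells Slc51a was -0.29 at a 40% limit and -0.59, -0.35 and -0.019 in the Creb3l3-led, Apoa1-led and Ceacam20-led clusters alone (an alternative chosen after seeing the data), and Slc51b was 0.18 at a 10% limit and 0.0032 with no alignment. Leaving out a library gave -1.38 to 0.19 (Fabp6), -0.068 to 0.32 (Slc51a), -1.68 to 0.00034 (Slc10a2) and -1.86 to 0.015 (Fgf15). Without Fpr2f/f replicate 3 the direction turned for Fabp6 and Slc10a2 in both, and for Slc51a and Slc51b in all epithelial cells. The class-standardised Fabp6 difference ranged from -457 to 245 CPM over these. The difference in the share of enterocyte-like cells with a Fabp6 UMI ranged from -10.3 to 8.90 percentage points with a library left out, and was 5.26 at a 10% limit, 1.80 without thinning and -14.8 with cells thinned to 5000 UMIs.

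Correlations of deviations from the group means were -0.038, -0.052 and 0.284 for same-numbered libraries and -0.139 to 0.193 for libraries with different numbers. These values do not settle whether replicate numbers pair the libraries, and the values reported use no pairing. The replicate block called 46 genes in all epithelial and 969 in enterocyte-like cells, against 3 and 627 without it, and the members called were 0 and 1 as without it. Over all alternatives 1 to 153 genes were called in all epithelial, 2 to 1178 in enterocyte-like, 1 to 244 in stem-like, 1 to 87 in TA-like, 1 to 60 in Paneth-like, 3 to 35 in goblet-like, 1 to 13 in enteroendocrine-like, 1 to 6 in tuft-like and 1 to 156 in unnamed cells. Fgf15 and Nr0b2 rest on 501 and 65 UMIs.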
